A study of Arabidopsis thaliana with 18 samples.

Results

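Petioles, the stalks that carry leaf blades, were examined for what 2 h of darkness did to their transcripts in wild-type (WT) Arabidopsis thaliana seedlings. All 6 petiole arrays of both treatments were used, of 18 arrays in the series, and all 22746 probe sets that are not array controls were tested, of 22810. The seedlings had grown on rockwool for 19 days at 22 °C in unbroken white light. One group was then put in the dark for 2 h (D), another spent those 2 h in white light (WL), and each is represented by 3 arrays that the series text calls independent biological replicates. A further group had a far-red pulse ahead of its 2 h in the dark (FRD), and blades of the same treatments were hybridised apart, so the series holds 6 groups. RNA came from rosette leaves 3 and 4 in every group, and the age, the genotype and the growth conditions were the same in all of them.

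A leaf that passes from light to dark loses photosynthesis at once and lives on stored sugars and starch, and it reads the change through phytochromes, cryptochromes and the circadian clock. Phytochrome-interacting factors are known to gather in the dark and to drive growth genes, many of them through auxin. Petioles are the organs that lengthen in shade and in long darkness, whereas blades are the main site of photosynthesis. The comparison of D with WL asks which transcripts respond within hours in the stalk itself.

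Each deposited value is a ratio to the median of the 3 WL arrays of the same tissue, which was exactly 1 for all 22746 probe sets. A value of 4 therefore stands for a signal 4 times that median, and the absolute level of a gene cannot be read from it. Array medians lay between 0.989 and 1.004 in D petioles and at 1 in WL petioles. The interquartile range of the log2 ratios was 0.692 to 0.816 on the D arrays, against 0.0959 to 0.287 on the WL arrays, and 1 value was missing in D replicate 3. The array control for 25S ribosomal RNA read 0.843, 1.19 and 1.1 in D and 1.02, 1 and 0.892 in WL, so both groups overlapped there. That for 5S ribosomal RNA read 0.202, 0.0809 and 1.01 in D and 1, 1.36 and 0.86 in WL, with 2 D arrays far below the rest. Of all 19 control probe sets for Arabidopsis genes, 5 had D arrays wholly above or below the WL arrays. The same held for 5975 of the 22746 probe sets tested (26.3%), so the controls were near that share. The 5 were 4 of the 6 for actin, lower in D, and 1 of the 5 for ubiquitin, higher in D. Their changes were -0.24 to -0.14 for those 4 and 0.08 for the ubiquitin one. The part of these control values in the results was not tested. Markers of a tissue could not be used to check the petiole label, because ratios carry no level.

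Darkness changed 1274 probe sets in petioles, or 5.6% of those tested, at a limma adjusted p under 0.05. Of these, 785 were higher in D (3.45%) and 489 were lower (2.15%). Changes of at least 2-fold made up 577 of the calls (2.54%), with 372 higher (1.64%) and 205 lower (0.901%). The 3 D arrays lay wholly above or below the 3 WL arrays for 1273 of the 1274, and for 5975 of all probe sets (26.3%). The median change was 0.95 log2 units for the higher calls and -0.90 for the lower ones, and the extremes were 6.56 and -4.93. In whole petioles, fewer cells of a type and less RNA per cell cannot be told apart. A change in this text is the mean log2 ratio of D minus that of WL, and the error beside it is its standard error in the limma fit.

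Only part of the response could be named. Of the 1274 probe sets, 91 belong to a gene with a symbol or a synonym (54 higher, 37 lower), 556 to a gene known by its locus code, and 627 have no gene name in the probe annotation. The 91 make up 5.394% of the 1687 named probe sets, close to the share of 5.6% over all probe sets. With 1 petiole array left out in turn (6 fits), 24 of the 91 kept their call in all 6, and 20 lost it in all 6. Beside the genes below, "lost in" gives the number of those fits in which the adjusted p was 0.05 or more, with its highest value. The genes chosen by a rule on size and p number 42, of which 10 were still called after quantile normalization, 20 with the compared arrays alone, 25 with the petiole arrays alone and 8 in every alternative run. Those 8 were DTX50, CYP71B22, NGA1, EXPB1, AOP1, AT3G23550, AT3G21080 and AT4G21870. The genes below came from that rule and from gene lists, and those outside both were picked from the 91 after their values were seen.

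The share of higher calls depended on how arrays were scaled. It was 61.6% with the ratios as deposited, and 13.4% of 2907 calls once the 75th percentiles of all arrays had been aligned, a step that put the median change of all probe sets at -0.29. List medians given for that setting below include this shift. The ratios are relative to the median of the WL arrays themselves, and the WL arrays were the narrower ones. Aligning an upper percentile of such ratios lowers the D arrays. Quantile normalization, also run on the ratios, gives narrow WL arrays and wide D arrays the same distribution. Calls gained or lost in either setting therefore cannot show whether the signals had been scaled well before the division.

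The largest rise of a gene with a name was that of DTX50 (AT5G52050), a transporter of the multidrug and toxic compound extrusion family known to export abscisic acid. Its ratios were 10.6, 12.9 and 17.1 on the D arrays, against 0.58, 1.26 and 1 on the WL arrays. Every D petiole was thus at least 8-fold above every WL petiole. The change was 3.88 ± 0.36 log2 units, a 14.7-fold rise (limma adjusted p = 7.11e-05). The gene with the smallest adjusted p was CYP71B22 (AT3G26200), a cytochrome P450, at 7.84, 8.69 and 6.98 in D and 1, 0.862 and 1.11 in WL (change 2.99 ± 0.22, 7.92-fold, adjusted p = 2.79e-05). Both calls held in all 6 fits without 1 petiole array.

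Genes of the cell surface and wall were among the next. SBT3.3, a secreted subtilisin-like protease known from immune priming, read 6.55, 7.37 and 13.2 in D and 1, 0.525 and 1.51 in WL. Its change was 3.21 ± 0.87 (adjusted p = 0.0471, lost in 6 of 6 fits at adjusted p up to 0.165), and both groups were widely spread. The pectin methylesterase gene ATPMEPCRB read 3.63, 2.85 and 7.6 in D and 0.768, 1 and 1.29 in WL, with no overlap (change 2.1 ± 0.33, adjusted p = 0.00298). B120, an S-locus-type lectin receptor kinase, read 3.79, 4.11 and 7.41 in D and 1, 2.41 and 0.916 in WL (change 1.90 ± 0.47, adjusted p = 0.0305, lost in 4 of 6 fits at adjusted p up to 0.132). ATPMEPCRB alone of the 3 had a call in all 6 fits, and lost it after quantile normalization and with the compared arrays alone (adjusted p up to 0.1).

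Several regulators rose. CIL, a CCT-motif protein related to the chloroplast import factor CIA2, read 6.17, 8.08 and 5.01 in D and 2.47, 1 and 0.511 in WL (change 2.54 ± 0.47, adjusted p = 0.00758). DEWAX, an AP2/ERF-type repressor of cuticular wax genes, read 2.26, 2.46 and 3.04 in D and 1, 1.09 and 0.429 in WL (change 1.73 ± 0.36, adjusted p = 0.0132, lost without D replicate 3 at adjusted p = 0.0597). In both genes every D array was above every WL array, although WL replicate 1 of CIL, at 2.47, was well above the other two. MYBC1, a MYB-like factor, had the smallest standard error of the 15 largest rises, with 2.08, 2.79 and 2.98 in D, against 0.915, 1.14 and 1 in WL (change 1.35 ± 0.16, adjusted p = 0.000399). IQD22, a calmodulin-binding protein, rose by 1.94 ± 0.37 (adjusted p = 0.00899), although D replicate 3 at 1.93 was well under the other D values of 3.47 and 5.84. Quantile normalization, the compared arrays alone and the petiole arrays alone each removed the calls of CIL, DEWAX and IQD22. CIL and DEWAX also lost theirs without all replicate 3 arrays. Over these settings their limma adjusted p went up to 0.294 (CIL), 0.201 (DEWAX) and 0.159 (IQD22). MYBC1 lost its call after quantile normalization and with the compared arrays alone (adjusted p up to 0.0558).

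Smaller rises included those of ROXY2, HHP2 and YLS5. ROXY2, a glutaredoxin gene, rose by 1.48 ± 0.36 (adjusted p = 0.0304, lost in 4 of 6 fits at adjusted p up to 0.117). HHP2, which encodes a heptahelical membrane protein, rose by 1.46 ± 0.25 (adjusted p = 0.00432, held in all 6 fits). YLS5, known from yellowing leaves, rose by 1.38 ± 0.32 (adjusted p = 0.0237, lost in 4 of 6 fits at adjusted p up to 0.104). Of these only HHP2 kept its call whichever petiole array was left out, and it lost it after quantile normalization and with the compared arrays alone (adjusted p up to 0.321).

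Some genes with no name but a locus code rose further than any of these. AT3G23550 read 43.9, 73.2 and 95.7 on the D arrays and 0.991, 1.43 and 1 on the WL arrays, the largest change of a probe set with 1 gene (5.91 ± 0.78, 60.2-fold, adjusted p = 0.000856). AT3G21080 read 12.7, 18.2 and 33.4 in D and 0.946, 1.08 and 1 in WL (change 4.29 ± 0.54, adjusted p = 0.000656), and AT4G21870 read 11.7, 15.8 and 17.7 in D and 0.792, 1 and 1.03 in WL (change 3.99 ± 0.56, adjusted p = 0.00144). All 3 had WL arrays near 1 and calls in all 6 fits. AT1G26420 rose by 5.12 ± 1.24 (adjusted p = 0.0286, lost in 6 of 6 fits at adjusted p up to 0.117) and AT1G26380 by 4.2 ± 1.06 (adjusted p = 0.0338, lost in 5 of 6 fits at adjusted p up to 0.137). Both had their highest ratio in D replicate 3, at 58.8 for AT1G26420 and 31.8 for AT1G26380.

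**Figure D1:**
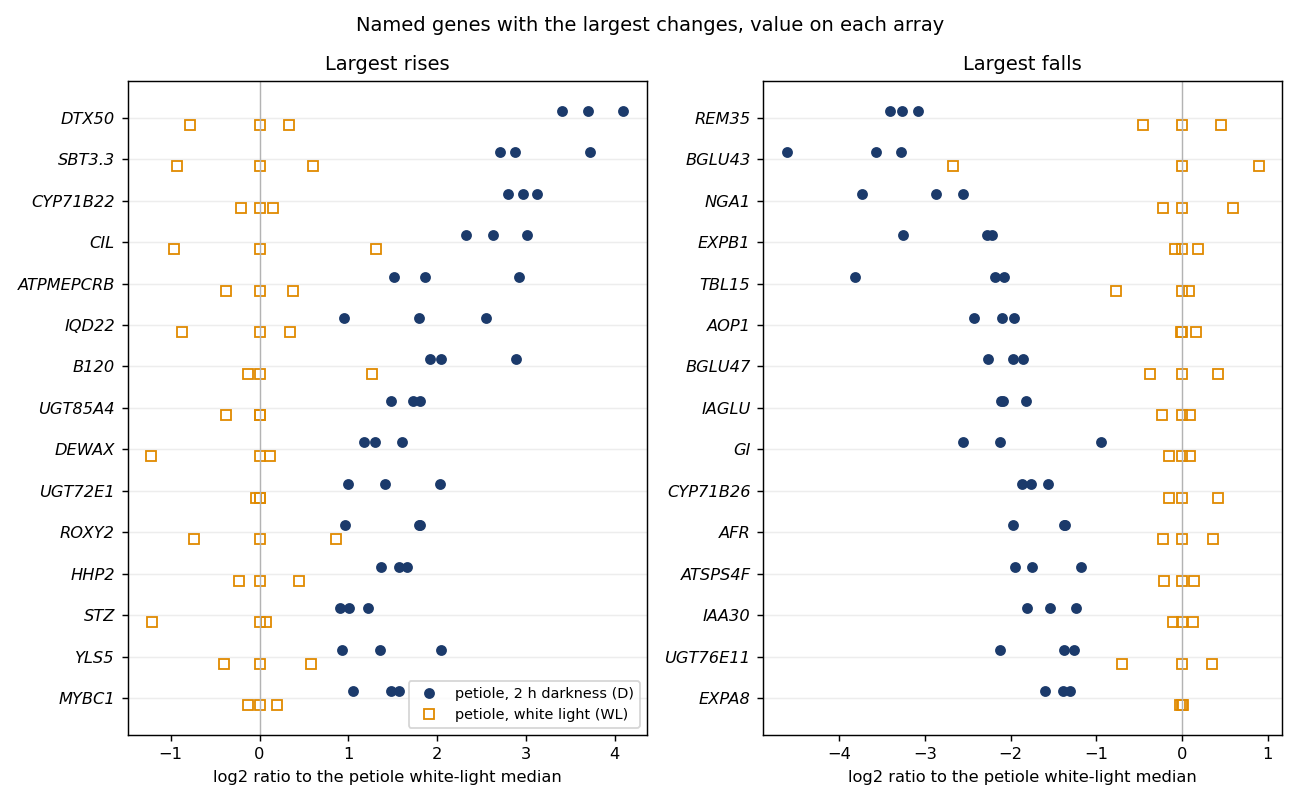
Log2 ratio to the petiole white-light median (x axis) on each of the 3 D arrays (filled circles) and 3 WL arrays (open squares) for the 15 largest rises (left) and the 15 largest falls (right) among called genes with a symbol or synonym whose arrays do not overlap. DTX50 sits above 3 log2 units on every D array, while BGLU43 has 1 WL array near its D arrays.

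The largest falls of genes with a name included regulators of growth and leaf shape. NGA1 (AT2G46870), a B3-type transcription factor of leaf and style development, read 0.17, 0.075 and 0.137 in D, against 1, 1.51 and 0.856 in WL. The highest D array was thus about 5-fold under the lowest WL array. Its change was -3.18 ± 0.44, a 9.05-fold fall (adjusted p = 0.00128). REM35, another B3-domain gene, read 0.118, 0.104 and 0.0943 in D and 1.37, 1 and 0.728 in WL (change -3.25 ± 0.67, adjusted p = 0.0131, lost without D replicate 3 or WL replicate 1 at adjusted p up to 0.0564). EXPB1, a beta-expansin that loosens cell walls, read 0.216, 0.207 and 0.105 in D and 1, 1.14 and 0.946 in WL. Its D arrays were all well under its WL arrays, a 6.12-fold fall (change -2.61 ± 0.33, adjusted p = 0.000656).

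Genes known from the clock and from light signalling were also among the falls by size, while 2 of the 3 genes in the list of each had positive changes. GI (AT1G22770), which encodes GIGANTEA of the clock and of daylength-controlled flowering, read 0.229, 0.17 and 0.52 in D and 1, 1.07 and 0.901 in WL. D replicate 3 was the least affected, and the change was -1.86 ± 0.37 (adjusted p = 0.011). AFR, an F-box gene of phytochrome A signalling, read 0.385, 0.388 and 0.256 in D and 0.859, 1 and 1.29 in WL (change -1.62 ± 0.27, adjusted p = 0.00383). Both calls held in all 6 fits without 1 petiole array. That of GI was lost after quantile normalization, with the compared arrays alone and with the petiole arrays alone (adjusted p up to 0.12), and that of AFR after quantile normalization and with the compared arrays alone (adjusted p up to 0.0954). Of the 3 clock genes measured, GI alone was called, while TIC and FIO1 were at 0.26 and 0.55 and did not pass the test (list median 0.26). Of 3 genes of photoreceptors and light signalling, HYH, FHL and HAT2, 0 were called and 1 had an unadjusted p under 0.05 (median 0.30, and 0.08 to 0.62 without 1 petiole array). VTC4, a phosphatase of ascorbate synthesis, had 3 nearly equal D values of 0.433, 0.437 and 0.466, against 1, 0.956 and 1.04 in WL (change -1.16 ± 0.15, adjusted p = 0.000834). The call of VTC4 was lost after quantile normalization (limma adjusted p = 0.102).

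Enzyme genes were among the remaining falls. AOP1, a dioxygenase gene beside the glucosinolate side-chain genes AOP2 and AOP3, read 0.258, 0.234 and 0.186 in D and 1, 1.12 and 0.993 in WL (change -2.21 ± 0.28, adjusted p = 0.000653). ATSPS4F, a sucrose phosphate synthase, read 0.259, 0.441 and 0.297 in D and 1, 1.1 and 0.865 in WL (change -1.60 ± 0.31, adjusted p = 0.00935). Neither gene's arrays overlapped, and both calls held in all 6 fits without 1 petiole array. That of ATSPS4F was lost after quantile normalization, with the compared arrays alone, with the petiole arrays alone and without all replicate 3 arrays (adjusted p up to 0.172). CYP71B26 fell by 1.82 and UGT76E11 by 1.47 log2 units (adjusted p = 0.0113 and 0.00726). Both calls were lost after quantile normalization, and that of CYP71B26 also without all replicate 3 arrays (limma adjusted p up to 0.189). UGT76E11 also lost its call with the compared arrays alone and with the petiole arrays alone (adjusted p up to 0.215). In the trichome birefringence-like family, linked to acetylation of wall polysaccharides, TBL15 read 0.0711, 0.238 and 0.221 in D and 1, 1.06 and 0.586 in WL (change -2.46 ± 0.54, adjusted p = 0.0175, lost in 3 of 6 fits at adjusted p up to 0.0711).

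The falls known by locus code included the deepest of all. AT2G15020 read 0.0335, 0.117 and 0.0134 in D and 1, 0.9 and 1.65 in WL (change -4.93 ± 0.60, a 30.5-fold fall, adjusted p = 0.00074). Its D arrays spread over almost 9-fold and still lay far under WL. With the compared arrays alone it was not called (limma adjusted p = 0.0682). AT2G27420 fell by 3.94 log2 units (adjusted p = 0.0116, lost without WL replicate 2 at adjusted p = 0.0517), AT5G57670 by 3.74 (adjusted p = 0.00964) and AT4G03660 by 3.27 (adjusted p = 0.0186, lost in 4 of 6 fits at adjusted p up to 0.0726). AT5G57670 was not called with ratios floored at 0.553 (limma adjusted p = 0.177). For AT5G33370 the D arrays were alike at 0.0741, 0.0724 and 0.0716, while the WL arrays themselves spread widely, at 1, 1.3 and 0.133 (change -2.94 ± 0.75, adjusted p = 0.0361, lost in 5 of 6 fits at adjusted p up to 0.149).

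Gene lists were read against all 13356 genes that have a probe set of their own, of which 404 were called higher and 237 lower (4.799% in all) with a median change of -0.0011. The lists and their members were chosen with earlier results of these data known. The share of calls in a list is therefore a description beside 4.799% and no test. The list of dark-inducible and starvation genes had 6 measured members, of which 2 rose and 0 fell. They were AKINBETA1, which encodes a beta subunit of the starvation-responsive kinase SnRK1 (change 1.22 ± 0.30, adjusted p = 0.0302, lost in 6 of 6 fits at adjusted p up to 0.0983), and MCCA, a subunit of the leucine-breakdown enzyme methylcrotonyl-CoA carboxylase (change 1.12 ± 0.28, adjusted p = 0.034, lost in 6 of 6 fits at adjusted p up to 0.121). AKINBETA1 read 2.54, 2.18 and 1.92 in D and 1, 1.1 and 0.768 in WL, with no overlap. The median of the list was 0.83, and it was 0.55 with the 75th percentiles aligned, where 0 members were called. Without 1 petiole array the median lay between 0.68 and 0.96, with 0 calls in 5 fits and 1 call without D replicate 2. IVD, which acts a step before MCCA, had a change of 0.67 and the RING-type gene ATL8 one of 1.0, and neither passed the test (adjusted p = 0.0865 and 0.0513).

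ETFQO, SDP1 and MGL, which are in no list and were picked after their values were seen, were called higher. ETFQO, which passes electrons from amino acid breakdown to the mitochondrial chain, read 1.56, 1.5 and 1.51 in D and 0.905, 1 and 1.01 in WL (change 0.65 ± 0.14, adjusted p = 0.0154, lost without D replicate 3 or WL replicate 1 at adjusted p up to 0.0665). The rise was small and nearly the same on all 3 D arrays. SDP1, a lipase of storage oil, rose by 0.58 ± 0.16 (adjusted p = 0.0491, lost in 6 of 6 fits at adjusted p up to 0.144), and MGL, which splits methionine, by 0.88 ± 0.23 (adjusted p = 0.0402, lost in 5 of 6 fits at adjusted p up to 0.149). Of 11 autophagy genes, ATG8E alone was called, at 2.46, 2.63 and 2.33 in D, against 1.45, 1 and 0.87 in WL (change 1.19 ± 0.25, adjusted p = 0.0139, lost in 3 of 6 fits at adjusted p up to 0.0571). The other 10 autophagy genes lay between -0.09 and 0.30. The median of the list was 0.11, with 0.09 to 0.18 without 1 petiole array and -0.18 with the 75th percentiles aligned.

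Photosynthesis genes with a name gave no call. All 3 light-harvesting antenna genes measured, all 7 nuclear genes of photosystems and electron transport, and all 4 of carbon fixation had negative changes, and 0 of the 14 passed the test in limma, adjusted or unadjusted. Their medians were -0.20, -0.19 and -0.14, and the last was 0.01 without D replicate 3. The lowest value was that of PRK, phosphoribulokinase (-0.46 ± 0.23, adjusted p = 0.302). Under aligned 75th percentiles 1 antenna gene and 1 photosystem gene were called lower. Of 53 genes encoded in the plastid itself, leaving aside those of ribosomal proteins, 0 were called and 0 had an unadjusted p under 0.05, with a median of 0.08 as deposited, -0.08 to 0.29 without 1 petiole array and -0.20 with the 75th percentiles aligned. Chlorophyll and carotenoid synthesis had 0 of 10 called and 2 at an unadjusted p under 0.05 (median -0.17, and -0.33 to -0.09 without 1 petiole array), with CHLI2, a magnesium chelatase subunit, lowest at -0.64 ± 0.22 (adjusted p = 0.118).

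Genes for 3 factors that build or edit the photosynthetic electron transport chain fell. CRR21, an RNA-editing protein for a subunit of the chloroplast NDH complex, read 0.578, 0.511 and 0.422 in D and 1, 1.05 and 0.882 in WL (change -0.96 ± 0.20, adjusted p = 0.0118, lost without D replicate 3 or WL replicate 2 at adjusted p up to 0.0594). CRR42, needed to assemble that complex, fell by 0.92 log2 units (adjusted p = 0.0243, lost in 3 of 6 fits at adjusted p up to 0.107). CCB3, which helps attach haem to the cytochrome b6f complex, fell by 0.92 (adjusted p = 0.0263, lost in 5 of 6 fits at adjusted p up to 0.11). They belong to no list and were picked after their values were seen. How many genes of such factors were measured was not counted, so the 3 give no share.

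Starch and sucrose genes showed 1 fall among 7, that of APL4, a large subunit of ADP-glucose pyrophosphorylase in starch synthesis. It read 0.463, 0.35 and 0.628 in D and 1.15, 0.901 and 1 in WL (change -1.11 ± 0.30, adjusted p = 0.0492, lost in 6 of 6 fits at adjusted p up to 0.17). The list had a median of -0.27. Of 21 sugar transporter genes 0 were called and 1 had an unadjusted p under 0.05, with changes from -1.09 to 1.2.

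Flavonoid synthesis had 5 measured genes, all with negative changes and a median of -1.14. Only UGT78D1, which attaches rhamnose to flavonols, passed the test, at 0.477, 0.627 and 0.284 in D and 1.06, 1 and 0.953 in WL (change -1.19 ± 0.32, adjusted p = 0.0444, lost in 5 of 6 fits at adjusted p up to 0.182). UGT78D2, which attaches glucose to flavonoids, was at -0.86 ± 0.25 (adjusted p = 0.0589) and BAN, anthocyanidin reductase, at -1.75 ± 0.52 (adjusted p = 0.0702). Without all replicate 3 arrays, a choice made after seeing the data, that median was -0.62 and 0 of the 5 were called. Without D replicate 3 alone it was -0.59, and without another petiole array it lay between -1.45 and -1.04.

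Auxin genes of the list were called in the lower direction alone. Of 12 genes of auxin synthesis, conjugation and transport, 0 rose and 2 fell, with a median of -0.28, which was -0.55 without D replicate 1 and -0.14 without D replicate 2. Both falls were glycosyltransferases of auxin. IAGLU, which joins glucose to indole-3-acetate, read 0.283, 0.235 and 0.231 in D and 0.852, 1 and 1.07 in WL (change -1.96 ± 0.38, adjusted p = 0.00883). All IAGLU arrays of D were under those of WL, and the call held in all 6 fits and was lost after quantile normalization and with ratios floored at 0.553 (adjusted p up to 0.205). UGT74D1 fell by 0.74 log2 units (adjusted p = 0.0293, lost in 5 of 6 fits at adjusted p up to 0.119). The GH3 genes, whose enzymes join auxin to amino acids, were not called: GH3.3 was at 0.76 ± 0.82 (adjusted p = 0.715) and WES1 at 0.24 ± 0.23 (adjusted p = 0.673).

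Of 7 Aux/IAA repressor genes, 1 fell and 0 rose. That gene was IAA30 (AT3G62100), at 0.345, 0.426 and 0.285 in D, against 1.1, 0.928 and 1 in WL (change -1.53 ± 0.38, adjusted p = 0.0314, lost in 6 of 6 fits at adjusted p up to 0.121). The arrays of each group lay close together, although the call was lost whichever array was left out. IAA29, another member, read 1.62, 1.56 and 4.25 in D and 0.887, 1 and 1.75 in WL, which overlapped (change 0.93 ± 0.38, adjusted p = 0.197). The median of the list was -0.11 with the ratios as deposited, -0.37 to 0.05 without 1 petiole array and 0.01 without all replicate 3 arrays.

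Among other hormones, EIN3, the central transcription factor of ethylene signalling, rose slightly but evenly, with 1.37, 1.29 and 1.39 in D and 0.996, 1.16 and 1 in WL (change 0.36 ± 0.10, adjusted p = 0.0427, lost in 5 of 6 fits at adjusted p up to 0.156), as the 1 call among 3 ethylene genes. XERICO, a RING-type gene known to raise abscisic acid, read 1.93, 2.15 and 2.01 in D, against 0.997, 1 and 1.39 in WL (change 0.86 ± 0.17, adjusted p = 0.011, lost without WL replicate 1 or WL replicate 2 at adjusted p up to 0.054). Both genes' D arrays lay above all WL arrays. XERICO was picked after its value was seen. The 3 genes of the abscisic acid list all had negative changes, from -0.60 to -0.18, and 0 were called, adjusted or unadjusted. Their median was -0.28, with -0.62 to -0.09 without 1 petiole array. All 6 gibberellin signalling genes had positive changes between 0.08 and 0.56, with 0 called by limma and 2 at an unadjusted p under 0.05 (median 0.43). They include the receptors GID1A (0.48 ± 0.20, adjusted p = 0.2), GID1B and GID1C. SPY, a repressor of gibberellin signalling, was at 0.55 ± 0.16 (adjusted p = 0.0647).

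Wall-loosening genes moved both ways. Of 28 expansin and xyloglucan endotransglucosylase genes, 2 rose and 2 fell, and the median was -0.07, with -0.18 to 0.13 without 1 petiole array. EXPB1 fell as described, and the alpha-expansin EXPA8 read 0.383, 0.331 and 0.405 in D and 1.01, 1 and 0.984 in WL (change -1.42 ± 0.36, adjusted p = 0.0359, lost in 6 of 6 fits at adjusted p up to 0.11). EXPA9, an alpha-expansin that rose, read 1.69, 2.26 and 2.52 in D and 0.864, 1 and 1.26 in WL (change 1.05 ± 0.24, adjusted p = 0.0207, lost in 4 of 6 fits at adjusted p up to 0.0921), and EXGT-A3, a xyloglucan endotransglucosylase, rose by 0.89 ± 0.20 (adjusted p = 0.0225, lost in 4 of 6 fits at adjusted p up to 0.0974). XTH18 had the highest change of the list at 2.66 ± 1.06 and did not pass the test (adjusted p = 0.18).

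Called genes outside the lists, picked after their values were seen, included GH9C2, CSLC5, ATCSLC08, GlcAT14B and CLE44, all lower in D. GH9C2, a family 9 endoglucanase, read 0.416, 0.442 and 0.332 in D and 0.935, 1 and 1.21 in WL (change -1.40 ± 0.23, adjusted p = 0.00418). The cellulose synthase-like genes CSLC5 and ATCSLC08, of the family that makes the xyloglucan backbone, fell by 0.66 (adjusted p = 0.0427, lost in 6 of 6 fits at adjusted p up to 0.134) and 0.83 (adjusted p = 0.0333, lost in 5 of 6 fits at adjusted p up to 0.127). GlcAT14B, a glucuronosyltransferase of arabinogalactan, fell by 0.54 (adjusted p = 0.0161, lost in 3 of 6 fits at adjusted p up to 0.0579). CLE44, the precursor of a peptide that keeps vascular stem cells dividing, fell by 0.98 (adjusted p = 0.0179, lost in 4 of 6 fits at adjusted p up to 0.0679). Of these 5 genes GH9C2 alone kept its call in all 6 fits.

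In the trichome birefringence-like family 4 of 23 genes rose and 1 fell. TBL40 rose by 1.32 ± 0.29 (adjusted p = 0.0173, lost in 3 of 6 fits at adjusted p up to 0.078) and TBL37 by 0.98 ± 0.25 (adjusted p = 0.035, lost in 5 of 6 fits at adjusted p up to 0.114). TBL45 rose by 0.83 ± 0.19 (adjusted p = 0.0245, lost in 5 of 6 fits at adjusted p up to 0.0874) and TBL32 by 0.70 ± 0.19 (adjusted p = 0.0485, lost in 6 of 6 fits at adjusted p up to 0.139). None of these 4 calls held in all 6 fits. With the 75th percentiles aligned, 1 member was called higher and 5 lower.

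The list with most rises for its size among those of 10 or more genes was that of wounding, touch, calcium and stress signalling. Like the others, that list was chosen with earlier results of these data known, so its rank is a description alone. Of its 16 genes, 5 rose and 0 fell, 14 had positive changes, and the median was 1.02. STZ, a zinc finger factor of stress tolerance, rose by 1.42 ± 0.36 (adjusted p = 0.0347, lost in 5 of 6 fits at adjusted p up to 0.107), and the calmodulin-like gene CML42 by 1.31 ± 0.34 (adjusted p = 0.0402, lost in 6 of 6 fits at adjusted p up to 0.166). CML30 read 1.57, 1.79 and 2.44 in D and 1, 0.697 and 1.15 in WL (change 1.03 ± 0.19, adjusted p = 0.00812), and its call alone held in all 6 fits. WRKY22, a factor of immune signalling, read 2.08, 1.92 and 2.23 in D and 0.935, 1 and 1.15 in WL (change 1.02 ± 0.25, adjusted p = 0.0312, lost in 6 of 6 fits at adjusted p up to 0.11), and the kinase BIK1 of the same signalling rose by 0.77 ± 0.20 (adjusted p = 0.0378, lost in 6 of 6 fits at adjusted p up to 0.161). Of the 7 WRKY factor genes 2 rose and 0 fell, the second being WRKY47 (1.24 ± 0.33, adjusted p = 0.0444, lost in 4 of 6 fits at adjusted p up to 0.183), and with the 75th percentiles aligned 0 were called higher and 1 lower. EFR, the receptor for a bacterial elongation factor, had the highest change of the list at 3.15 ± 1.01 but did not pass the test (adjusted p = 0.0916). Without 1 petiole array the median lay between 0.90 and 1.09, with 1 or 2 calls. The median was 0.74 with the 75th percentiles aligned, where 1 gene was called, and 0.89 without all replicate 3 arrays, where 3 were.

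**Figure D2:**
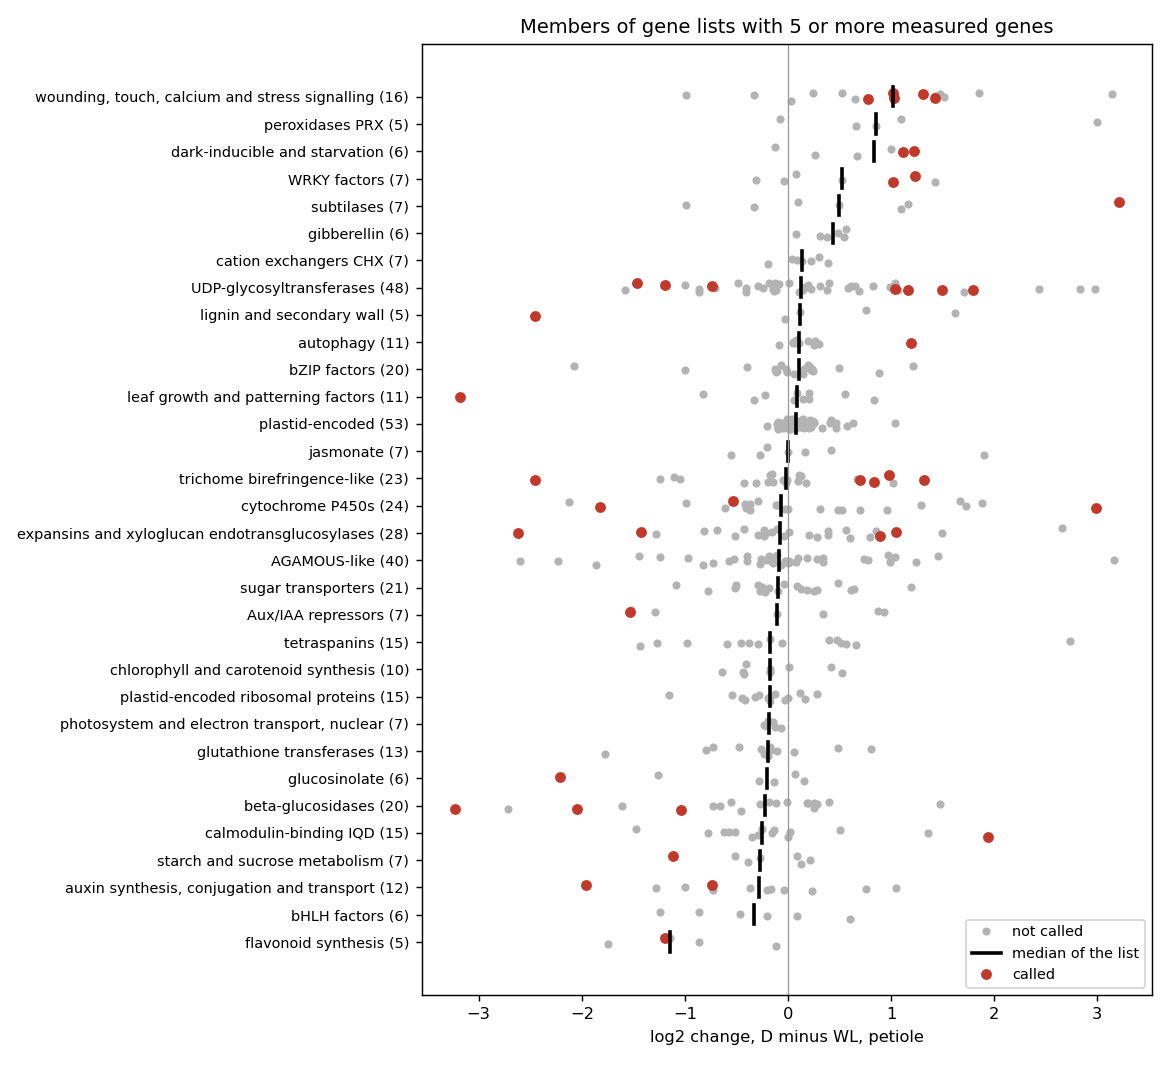
Change in petioles (x axis, log2 D minus WL) of every measured gene of each list with 5 or more genes (number in brackets). Larger red points passed the test, grey points did not, and the bar is the median of the list, which runs from -1.14 for flavonoid synthesis (-0.59 without D replicate 3) to 1.02 for wounding, touch, calcium and stress signalling.

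The largest enzyme family held calls in both directions. Of 48 UDP-glycosyltransferase genes, which attach sugars to hormones and other small molecules, 4 rose and 3 fell. UGT85A4 read 2.8, 3.32 and 3.51 in D and 1, 0.77 and 1 in WL (change 1.8 ± 0.25, adjusted p = 0.00144). Its call was lost after quantile normalization (limma adjusted p = 0.1145). UGT72E1, which acts on phenylpropanoids, rose by 1.49 ± 0.41 (adjusted p = 0.0487, lost in 6 of 6 fits at adjusted p up to 0.192), and was not called with medians or 75th percentiles aligned. UGT85A2 rose by 1.17 ± 0.22 (adjusted p = 0.0089, held in all 6 fits) and UGT71C5 by 1.04 ± 0.21 (adjusted p = 0.0126, lost without D replicate 2 or D replicate 3 at adjusted p up to 0.0515). The 3 falls were those of UGT76E11, UGT78D1 and UGT74D1, given above. The median of the family was 0.13 as deposited, -0.09 to 0.11 without 1 petiole array and -0.15 with the 75th percentiles aligned.

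Beta-glucosidases fell where they were called, with 3 of 20 lower and 0 higher (median -0.23). The median was -0.52 without WL replicate 1 and -0.55 without D replicate 2, with 1 to 3 lower over the 6 fits and 0 after quantile normalization. BGLU43 read 0.084, 0.103 and 0.0409 in D, against 0.157, 1 and 1.86 in WL (change -3.23 ± 0.86, adjusted p = 0.0432). WL replicate 1 was close to the D arrays there, and the call was lost in 5 of 6 fits at adjusted p up to 0.163. BGLU44 was at 0.469, 0.452 and 0.5 in D and 1, 1.03 and 0.893 in WL (change -1.04 ± 0.17, adjusted p = 0.00334, held in all 6 fits). BGLU47 read 0.276, 0.208 and 0.255 in D and 0.775, 1 and 1.34 in WL (change -2.05 ± 0.46, adjusted p = 0.0195, lost in 4 of 6 fits at adjusted p up to 0.0691). Among 24 cytochrome P450 genes, CYP71B22 rose, while CYP71B26 and CYP71B34 fell (-0.53 ± 0.14 for CYP71B34, adjusted p = 0.0414, lost in 5 of 6 fits at adjusted p up to 0.166).

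Some families had 0 called genes in petioles, namely the 40 AGAMOUS-like, 20 bZIP, 13 glutathione transferase and 15 tetraspanin genes. In limma 5, 1, 1 and 2 of them had an unadjusted p under 0.05, and their medians were -0.09, 0.10, -0.20 and -0.17, each nearer 0 in at least 1 fit without 1 petiole array. Of 11 leaf growth and patterning factors NGA1 alone was called, while its relatives NGA2, NGA3 and NGA4 were at 0.09, -0.33 and 0.55 (adjusted p = 0.91, 0.919 and 0.582).

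Markers of cell types were few on the named part of the array. Of 8 guard cell markers 3 were measured, SPCH, MUTE and FMA, with changes from -0.82 to -0.23 and 0 called, adjusted or unadjusted. Of 17 vascular markers SWEET11 alone was measured (1.2 ± 0.46, adjusted p = 0.157), of 12 epidermis markers FDH (0.35 ± 0.16, adjusted p = 0.243) and of 8 mesophyll markers RCA (-0.03 ± 0.18, adjusted p = 0.959). The part of a changed cell make-up in the results was not tested beyond these values.

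Genes next to each other on the chromosome were both called in 21 of 5814 neighbouring pairs with both genes measured, in the same direction in 17 pairs and in opposite directions in 4. Of all genes 404 were called higher and 237 lower, and how many pairs would share a direction from these numbers alone was not worked out. The neighbours of called genes were called in 7.035% of cases, against 4.799% of all genes. BGLU43 and BGLU44 are such a pair, and so are CYP71B26 and CYP71B34, and in both pairs both genes fell. Whether probes of close relatives pick up each other's transcripts was not tested.

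Blades of the same leaves responded in more probe sets. There, D against WL called 2542 probe sets (11.2%), with 1525 higher (6.7%) and 1017 lower (4.47%). Of the 785 probe sets higher in D petioles, 564 were also higher in D blades, which is 71.8% of the petiole list and 37% of the blade list. Of the 489 lower in D petioles, 304 were lower in D blades, which is 62.2% of the petiole list and 29.9% of the blade list. The sign of the blade change was the same for 753 of the 785 and for 475 of the 489. No array is shared by the 2 comparisons, but the fit takes each probe set's spread from all 18 arrays.

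The sizes of the changes could be set beside each other. The petiole calls had median changes of 0.95 (higher) and -0.90 (lower) in petioles, against 0.88 and -0.77 in blades. VTC4 fell by 1.16 in petioles and 1.29 in blades, AOP1 by 2.21 in petioles and 2.16 in blades, EXPB1 by 2.61 in petioles and 2.44 in blades, and GI by 1.86 in petioles and 2.11 in blades. AKINBETA1 rose by 1.22 in petioles and 1.98 in blades. UGT85A4 rose by 1.8 in petioles and 2.24 in blades, and AT3G23550 by 5.91 in petioles and 5.28 in blades. For these 7 genes the difference between tissues had unadjusted limma p-values of 0.0958 to 0.892. No rule set the choice of these 7, so they do not stand for the petiole calls as a whole. NGA1, for one, was not called in blades, where 0 of the 11 leaf growth and patterning factors were. Its difference between tissues did not pass the test either, which DTX50 alone passed. The fall of NGA1 is therefore not shown to be particular to petioles.

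Only 4 probe sets were called in opposite directions in both tissues. AT1G36730 was higher in D petioles (0.51 ± 0.11, lost in 3 of 6 fits at adjusted p up to 0.0761) and lower in D blades (-0.37 ± 0.11), and AT1G73430 was lower in D petioles (-0.61 ± 0.12, held in all 6 fits) and higher in D blades (0.43 ± 0.12). The other two have no gene name here, and their changes were 2.21 ± 0.60 in petioles and -2.75 ± 0.60 in blades for one, and -3.03 ± 0.77 in petioles and 2.59 ± 0.77 in blades for the other. The petiole call of the first of these was lost in 5 of 6 fits at adjusted p up to 0.169, and that of the second lost in 6 of 6 fits at adjusted p up to 0.148. The difference itself passed the test in none of the 4 (adjusted p = 0.172, 0.167, 0.172 and 0.183).

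**Figure D3:**
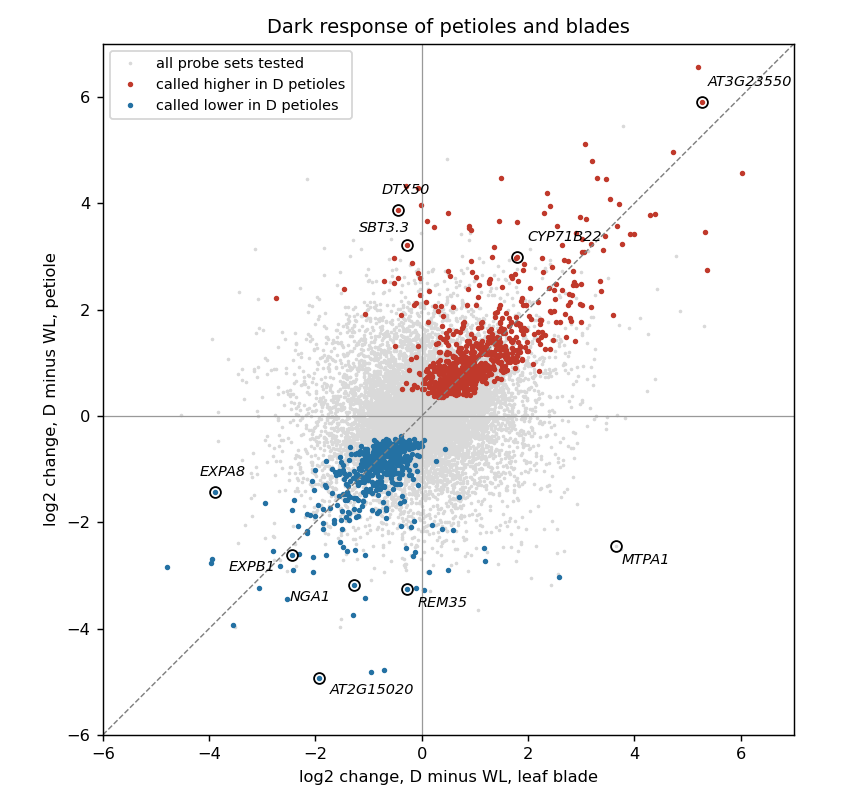
Change in petioles (y axis, log2 D minus WL) against the change in blades (x axis, log2 D minus WL) for all 22746 probe sets. Red points were called higher and blue points lower in D petioles, the dashed line marks equal changes, and DTX50 lies far above it, at 3.88 in petioles and -0.45 in blades.

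The difference of the dark response between tissues was called for 1 probe set (0.0044%), with 1506 at an unadjusted p under 0.05 (6.62%), in limma. That probe set was the one for DTX50. In petioles its ratios were 10.6, 12.9 and 17.1 in D and 0.58, 1.26 and 1 in WL, as given, and in blades they were 0.851, 0.688 and 0.64 in D and 1, 1.07 and 0.897 in WL. Of these 4 groups D petioles alone were high, and its blade change was -0.45 ± 0.36 (adjusted p = 0.517). The difference, petiole minus blade, was 4.33 ± 0.51 log2 units (adjusted p = 0.0198). It was lost when 1 of 7 arrays was left out in turn, namely petiole D replicate 3, petiole WL replicate 3, blade D replicate 1, 2 or 3, and blade WL replicate 1 or 2 (differences 4.15 to 4.45, adjusted p 0.0608 to 0.107).

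The next genes by p for this difference did not pass the test, and their values are given as such. MTPA1, a metal transporter, read 0.188, 0.94 and 0.0759 in D petioles and 0.924, 1 and 2.34 in WL petioles, while blades were at 7.3, 8.01 and 12.3 in D and 1.03, 0.347 and 1 in WL (difference -6.10 ± 1.07, adjusted p = 0.172). EXPA8 fell in both tissues, with blades at 0.0565, 0.0755 and 0.0583 in D and 1.08, 1 and 0.739 in WL, a deeper fall than in petioles by 2.46 ± 0.51 (adjusted p = 0.28). AGL91, a MADS-box gene, had blades at 0.127, 0.222 and 0.142 in D and 1, 0.557 and 1.03 in WL, and its petiole change of 1.24 ± 0.54 was not called (difference 3.63 ± 0.77, adjusted p = 0.308). IAA30 was lower in D petioles and had a blade change of 0.70 ± 0.38 (adjusted p = 0.296, difference -2.23 ± 0.54, adjusted p = 0.352).

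The other three had petiole changes near 0. Fes1C, an exchange factor of Hsp70 chaperones, had changes of 0.12 ± 0.12 in petioles and 0.89 ± 0.12 in blades. OTP84, an RNA-editing protein of chloroplasts, had changes of 0.00 ± 0.14 in petioles and -0.82 ± 0.14 in blades. GALT29A, a galactosyltransferase of arabinogalactan, had changes of 0.21 ± 0.19 in petioles and -0.89 ± 0.19 in blades. The adjusted p of the difference was 0.348 for Fes1C and 0.352 for OTP84 and GALT29A. All 3 blade changes passed the test (adjusted p = 0.000577, 0.00181 and 0.00811).

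**Figure D4:**
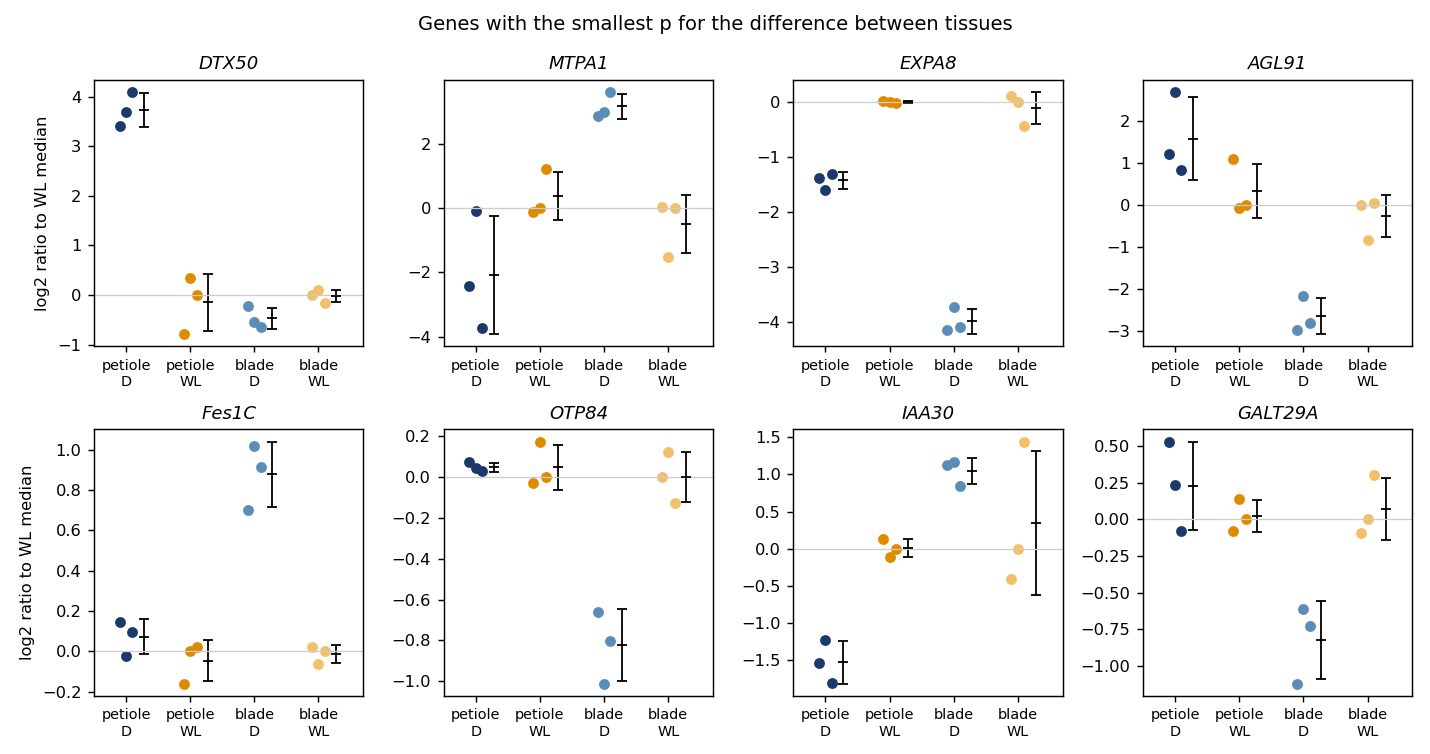
Log2 ratio to the white-light median of the tissue (y axis, a scale of its own in each panel) for the 8 named genes with the smallest p for petiole minus blade. Points are the 3 arrays of each group, and the bar beside them is the mean ± SD, so that DTX50 shows its D petioles above 3 and all other groups near 0.

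The petiole arrays with a far-red pulse before the dark gave a second look at darkness, with the pulse added. FRD against WL uses the same WL arrays as D against WL, and FRD against D uses the same D arrays, so a gene picked for its D arrays had no independent test there, and values are set side by side. DTX50 was at 6.53, 14.7 and 17.9 in FRD petioles, a change of 3.73 ± 0.36 from WL, beside 3.88 ± 0.36 in D. GI was at 0.243, 0.262 and 0.197 in FRD (change -2.09 ± 0.37), VTC4 at 0.396, 0.426 and 0.463 (-1.22 ± 0.15) and AOP1 at 0.289, 0.371 and 0.274 (-1.75 ± 0.28). Their changes in D, for the same WL arrays, were -1.86 ± 0.37 for GI, -1.16 ± 0.15 for VTC4 and -2.21 ± 0.28 for AOP1.

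Other genes stood elsewhere after the pulse. In FRD against WL 1891 probe sets were called (8.31%), and in FRD against D 249 (1.09%). IAA30, lower in D, was at 5.67, 6.46 and 5.99 in FRD petioles, 2.58 log2 units above WL, beside 0.345, 0.426 and 0.285 in D. MGL was at 12.9, 17 and 8.7 in FRD, against 1.87, 1.97 and 2.34 in D and 1, 1.43 and 0.962 in WL. CYP71B22 was at 2.57, 2.88 and 2.65 in FRD, beside 7.84, 8.69 and 6.98 in D and 1, 0.862 and 1.11 in WL.

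Genes low in D petioles are set beside their values after the pulse. AT5G57670 was at 0.0808, 0.0427 and 0.134 in D and 1.09, 0.882 and 1.02 in FRD, with FRD near the WL median. EXPA8 was at 0.383, 0.331 and 0.405 in D and 1.49, 1.86 and 0.584 in FRD (change from WL -1.42 ± 0.36 in D and 0.23 ± 0.36 in FRD). EXPB1 was at 0.498, 0.411 and 0.405 in FRD, with changes from WL of -2.61 ± 0.33 in D and -1.23 ± 0.33 in FRD. NGA1 was at 0.215, 0.45 and 0.889 in FRD (changes -3.18 ± 0.44 in D and -1.30 ± 0.44 in FRD), and IAGLU at 0.766, 1.39 and 0.446 (changes -1.96 ± 0.38 in D and -0.31 ± 0.38 in FRD). No test of FRD against D is given for these genes, since each had been chosen on its D arrays.

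**Figure D5:**
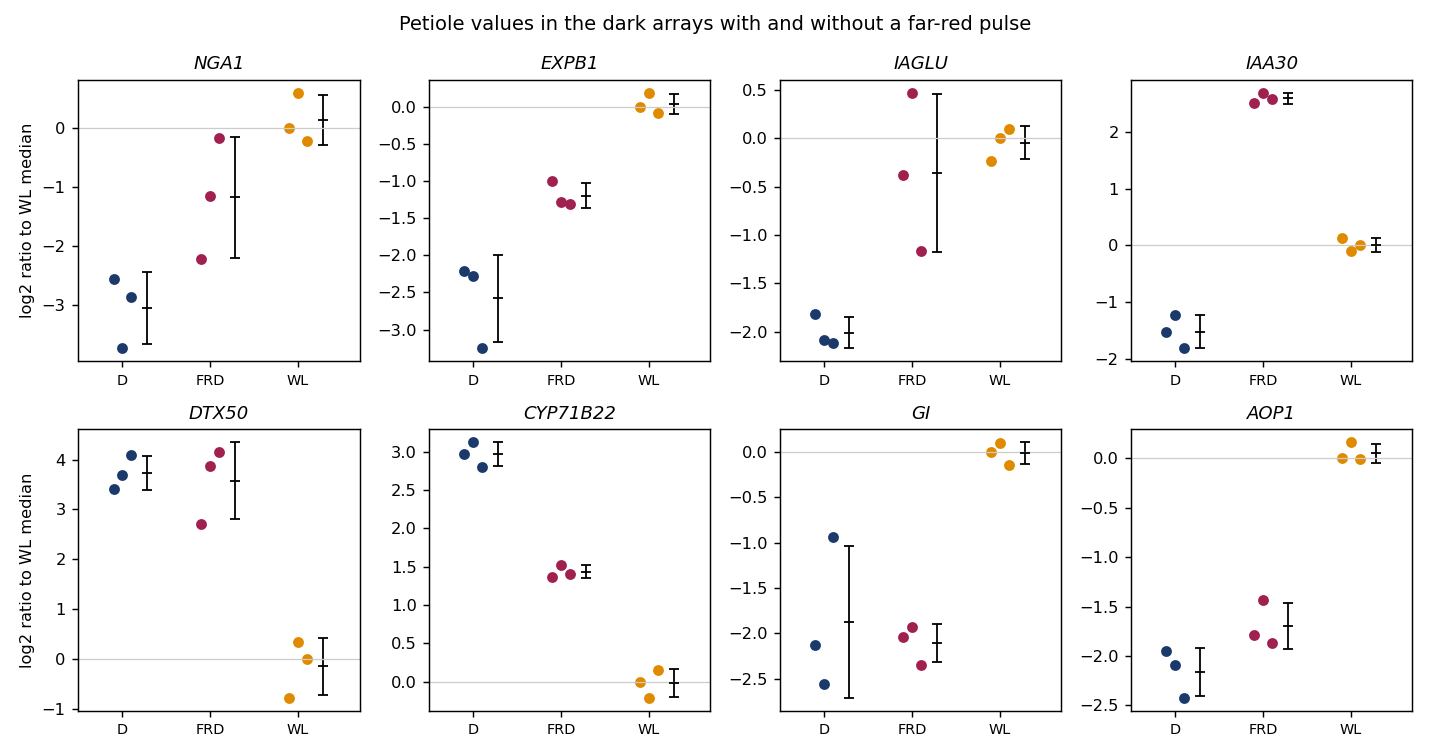
Log2 ratio to the petiole white-light median (y axis, a scale of its own in each panel) for 8 named genes in D, FRD and WL petioles. Points are arrays, with the mean ± SD beside them, and IAA30 lies below WL in D and 2.58 log2 units above it in FRD.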

How the data were processed

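Biotin-labelled RNA was hybridised to Affymetrix Arabidopsis arrays, per the labels' protocols. The authors deposited linear ratios. That they are relative to the white-light median of each tissue was read from the values, and no source used here states how arrays were scaled before that step. Dividing all arrays of a tissue by 1 value per probe set leaves D minus WL on the log2 scale unchanged.

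Here log2 was taken with no pseudocount, 64 control probe sets were left out, and limma 3.58.1 (R 4.3.3) was fitted with 1 mean for each of 6 groups over all 18 arrays, so that groups share 1 estimate of the spread (12 residual and 1.459 prior degrees of freedom). Tests were two-sided, with Benjamini-Hochberg adjustment over 22746 probe sets and calls at an adjusted p under 0.05. The number of arrays limits precision.

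Of the probe sets, 13513 had 1 gene in the probe annotation, 503 several and 8794 were not in it. RefSeq (TAIR10.1) matched 13436, giving a symbol to 1579 and a unique synonym to 108. A gene in a list was represented by its probe set of smallest residual SD. The named genes are the 15 largest rises and falls with a name and the 5 each of smallest adjusted p, the 5 largest each with a locus code (all called, with arrays not overlapping), the 8 of smallest p between tissues, and members of lists. The members and the 53 lists were chosen with earlier results of these data known. Promoter motifs were planned and are not analysed here. Alternatives covered scaling, arrays in the fit, array weights, floors on low ratios, a replicate block, the probe set for a gene and left-out arrays.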

Additional observations from a re-analysis of the deposited data

Results flagged for a closer look

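The response of DTX50 to darkness differed between petioles and blades by 4.33 ± 0.51 log2 units in the test of the difference itself (limma adjusted p = 0.0198, 3 arrays a group). Every D petiole array was above every WL petiole array, and every D blade array was below every WL blade array. The adjusted p was 0.284 after quantile normalization, and 0.137 without all replicate 3 arrays.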

How the results depend on the processing

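The number of probe sets called between D and WL petioles depended on the setting. Against 1274 in the main setting, 84 were called after quantile normalization, 257 with the compared arrays alone, 679 with the petiole arrays alone, 2223 with array weights, 2907 with 75th percentiles aligned (388 of them higher in D), 1244 with medians aligned, 1638 with ratios floored at 0.553 and 1288 with a floor of 0.131. Leaving out 1 petiole array gave 593 to 955, lowest without D replicate 3 and highest without WL replicate 3. Leaving out all replicate 3 arrays, a choice made after seeing the data, gave 705, of which 511 were among the 1274. With the replicate block 2039 were called, 1266 of them among the 1274. The labels give no pairing of arrays, so the main fit has no block. Same-numbered D and WL petiole arrays correlated at 0.0241, 0.0181 and 0.113 in their deviations from the group means. Differently numbered ones correlated at -0.0683 to 0.0459. Replicate 3 arrays also correlated at 0.126 between D and WL blades and at 0.112 between D petioles and D blades. Whether replicate 3 arrays share a batch was not tested.

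For the difference between tissues, with 1 call in the main setting, limma called 0 after quantile normalization (391 at an unadjusted p under 0.05), 0 with the replicate block (1875), 0 without all replicate 3 arrays (2015), 5 with the compared arrays alone, 2 with array weights and 0 to 7 without 1 array, the 7 without blade WL replicate 3. The difference for DTX50 had an adjusted p of 0.0518 with the replicate block. That for EXPA8 turned to -0.10 with ratios floored at 0.553, a value above all its D ratios in both tissues.

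Of 42 genes chosen by rule for D against WL, 10 were still called after quantile normalization, 40 with 75th percentiles aligned, 20 with the compared arrays alone, 26 without all replicate 3 arrays and 24 in every fit without 1 petiole array. No change of these 42 reversed in the alternatives run. The cause of these shifts was not tested. Quantile normalization and the alignment of 75th percentiles acted on ratios already divided by the WL median, a step that leaves WL arrays narrower than D arrays.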

Other observations

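Further called genes with a name, picked after their values were seen, are given here as values. DIM1A, a ribosomal RNA adenine dimethylase, read 1.86, 1.75 and 2.04 in D petioles, against 0.937, 1.23 and 1 in WL petioles (change 0.84 ± 0.14, limma adjusted p = 0.00346), with a blade change of 0.84. THO7, a subunit of the complex that couples transcription to messenger RNA export, read 0.606, 0.369 and 0.58 in D petioles, against 1, 1 and 0.945 in WL petioles (change -0.96 ± 0.19, adjusted p = 0.0113), with a blade change of -0.29. Both petiole calls held in all 6 fits without 1 petiole array.

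U2AF35B, a splicing factor subunit, rose by 0.56 ± 0.14 (adjusted p = 0.0323, lost in 5 of 6 fits at adjusted p up to 0.132), and the SUMO ligase gene SIZ1 by 0.66 ± 0.17 (adjusted p = 0.0348, lost in 5 of 6 fits at adjusted p up to 0.149). ELC, a component of the endosomal sorting complex ESCRT-I, rose by 0.56 ± 0.13 (adjusted p = 0.0209, lost in 3 of 6 fits at adjusted p up to 0.096). CRT1b, a calreticulin of the endoplasmic reticulum, fell by 0.57 (adjusted p = 0.0333, lost in 5 of 6 fits at adjusted p up to 0.131). FaTA, an acyl-carrier-protein thioesterase of fatty acid synthesis, fell by 0.99 (adjusted p = 0.0499, lost in 6 of 6 fits at adjusted p up to 0.167).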
